A study of Mus musculus with 17 samples.

Results

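The Slc25 genes encode the mitochondrial carriers, and 38 of them were followed here in kidneys of diabetic and lean mice. Members were the protein-coding genes named Slc25a and a number that had at least 10 counts in 8 or more of the 17 libraries. Of 46 such genes examined in the table, 38 met the count minimum and 8 did not, and 1 further family gene is not analysed here. All animals were males aged 16 weeks on the BKS background. The 8 db/m animals carry 1 copy of the leptin receptor mutation Lepr db and are lean. The 9 db/db animals carry that mutation on both chromosomes and become obese and diabetic. By the labels the groups also differ in genotype beyond Lepr, so a difference between them cannot be assigned to Lepr alone. Groups follow the sample titles, whereas the genotype field states the opposite genotype for every sample. If that field were right, each direction below would turn round. Library numbers run through db/m first and then db/db, so a batch that followed them cannot be told apart from the genotype. The db/m numbers are consecutive, whereas the db/db numbers have gaps between them.

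Mitochondrial carriers sit mostly in the inner mitochondrial membrane, which is otherwise closed to charged metabolites. They exchange ADP for ATP, bring in phosphate, and move citrate, malate, aspartate, glutamate, ornithine, cofactors, iron and glutathione between matrix and cytosol. Proximal tubule cells of the kidney depend on mitochondria for the ATP that drives reabsorption, and they also make glucose and ammonia from substrates that cross this membrane. A few relatives lie elsewhere, Slc25a17 in peroxisomes and Slc25a46 in the outer mitochondrial membrane.

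RNA was counted at the 3′ ends of polyadenylated transcripts, so longer transcripts do not gather more counts. Levels of different genes are set side by side on that basis, although they also depend on how each 3′ end is annotated. Reads outside genes held 19.3% of all reads, and the annotation release was not given. Levels are given as CPM, gene counts scaled to library depth with TMM factors. The libraries held 3256427 to 7627747 gene counts. In 4 libraries the median correlation with the other libraries was under 0.93: db/m replicate 4 (0.928) and db/db replicates 1 (0.929), 4 (0.922) and 8 (0.895). The tissue carried the markers of kidney tubules, with all 10 proximal tubule S1 and S2 markers measured and their summed level at 7501 to 10322 CPM in db/m and 8069 to 11132 CPM in db/db.

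No carrier transcript passed the test for a difference between db/db and db/m kidneys. Of the 38 members, 0 were higher and 0 lower by the quasi-likelihood test of edgeR, adjusted by Benjamini-Hochberg over all genes. Among the 12131 genes tested, 7.39% were called, 3.91% higher and 3.49% lower. At an unadjusted p under 0.05, 12 members were higher and 0 lower, against 11.6% and 9.52% of all genes tested. The count of 12 rested in part on single libraries: it was 5 when either db/m 4 or db/db 7 was left out, 6 when db/m 8 was, and 7 when db/m 2, db/m 3 or db/db 4 was. With 1 library left out it ran from 5 to 14 higher and from 0 to 2 lower, the 2 lower without db/db replicate 1 or 4. The log2 fold change, db/db minus db/m throughout, was above 0 for 28 members and below 0 for 10, with a median of 0.13. Over all genes tested it was above 0 for 50.5%, with a median of 0.00. DESeq2 called 1 member higher, the ornithine carrier Slc25a15 (5.12% of all genes were higher and 4.4% lower by that tool), and 0 lower. Limma-voom called 0 members (3.59% of all genes were higher and 3.96% lower by it), with 8 higher and 1 lower at an unadjusted p under 0.05. For 0 of the 38 did the CPM ranges of the groups separate, against 1.78% of all genes.

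The intervals show what these libraries can and cannot exclude. The 95% interval of the log2 fold change lay inside -1 to 1, a doubling or halving, for 36 of the 38 members. The exceptions were Slc25a42 (-1.49 to 0.13) and Slc25a25 (-0.18 to 1.02). For 21 members it lay inside a 1.5-fold change in either direction. Smaller differences were not excluded for those members.

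**Figure D1:**
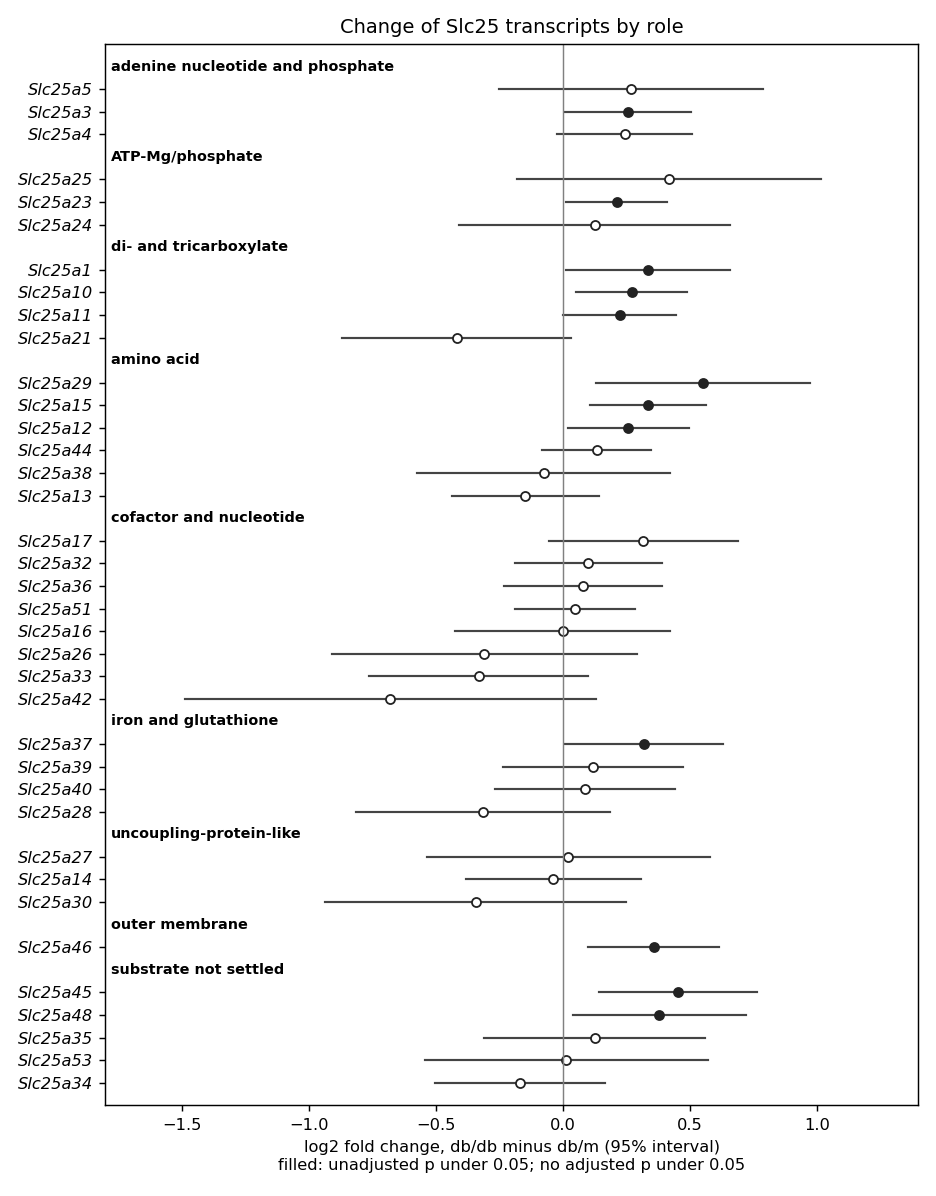
Log2 fold change of each Slc25 member (points) with its 95% interval (lines), grouped by what the carrier transports, with 1 member not shown; filled points have an unadjusted p under 0.05. The 12 filled points all lie above 0 with all 17 libraries in the fit (5 to 14 higher and 0 to 2 lower with 1 library left out), and none of the 38 members had an adjusted p under 0.05.

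The family's output was concentrated in a few genes. The 5 most abundant members held 60.4% ± 1.99 of the summed Slc25 CPM in db/m (SD, n = 8) against 60.6% ± 1.29 in db/db (SD, n = 9). On the scale of CPM averaged over all libraries, 9 members stood at 100 or more, 22 from 10 to under 100, and 7 under 10. The summed level of the members was 3920 ± 180 CPM in db/m against 4423 ± 423 in db/db (SD). Single libraries ran from 3613 to 4147 CPM in db/m and from 3857 to 5230 CPM in db/db, so the ranges overlapped. The db/db mean lay above the highest db/m library, and the difference was not tested.

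**Figure D2:**
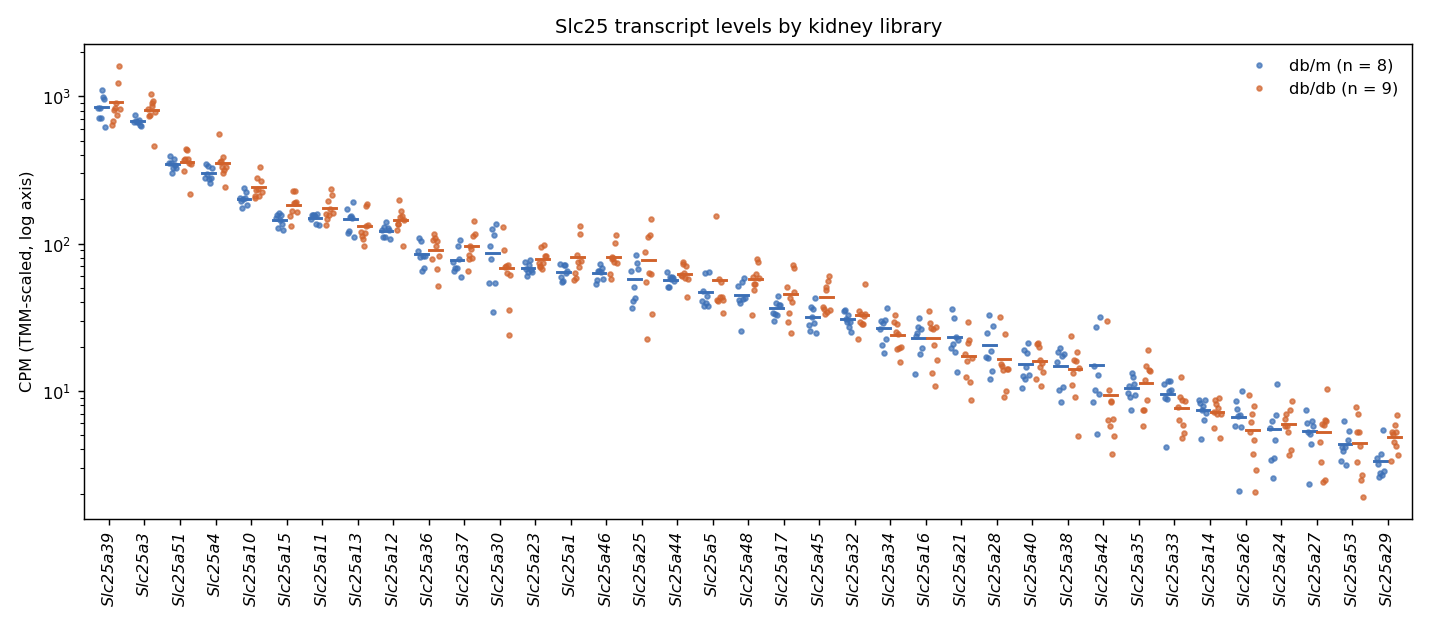
CPM of each Slc25 member in every library on a log axis, members ordered by mean level, with 1 not shown; points are libraries and short bars are group means. Levels run from the glutathione carrier Slc25a39 near 885 CPM to Slc25a29 near 4 CPM, and the db/m (n = 8) and db/db (n = 9) points overlap for every member shown.

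Of the carriers that serve ATP synthesis, Slc25a3 and Slc25a4 were among the most abundant members. Slc25a3 (chromosome 10) carries the phosphate that ATP synthase needs. It lay at 631 CPM (lowest), 671 (median) and 751 (highest) in db/m, and at 461, 815 and 1029 CPM in db/db. In db/db, 8 of 9 libraries were above the db/m median, and replicate 8 lay below all other libraries of either group. The means were 675 ± 37.1 CPM in db/m against 806 ± 161 in db/db (SD), with a log2 fold change of 0.26 (SE 0.12; edgeR adjusted p = 0.216). Without db/db replicate 8 it was 0.33 (SE 0.08) and passed (edgeR adjusted p = 0.0147), so 1 library decided this call. Over the 17 fits with 1 library left out, Slc25a3 ran from 0.21 to 0.33 (edgeR adjusted p from 0.0147 to 0.345).

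Slc25a4 and Slc25a5 encode ADP/ATP carriers 1 and 2, which export ATP from the matrix in exchange for ADP. Slc25a4 (chromosome 8) was at 258 (lowest), 289 (median) and 347 CPM (highest) in db/m, and at 241, 331 and 557 CPM in db/db. Its log2 fold change was 0.24 (SE 0.13; edgeR adjusted p = 0.285), with means of 300 ± 32.3 and 354 ± 86.9 CPM (SD). Db/db replicate 1 was the highest library, and the other db/db libraries ranged from below the lowest to above the highest db/m value. Slc25a5, on the X chromosome, was at 46.8 ± 10.9 CPM in db/m against 56.5 ± 36.9 in db/db (log2 fold change 0.27, SE 0.25). Db/db replicate 1 again stood out, at 153 CPM, where all other libraries lay from 33.8 to 64.2. The next highest were db/m replicates 8 (64.2) and 4 (62.9). Summed skeletal muscle markers were at 10.5 CPM in db/db replicate 1, against a range of 1.14 to 63.5 over db/db, and summed adipocyte markers at 113, against 9.73 to 218. The part of muscle or fat tissue in the Slc25a4 and Slc25a5 values was not tested. Slc25a5 has near-identical processed copies in the genome, so its count is uncertain. The 1 such copy in the table, Slc25a5-ps, held 0 to 1.90 CPM.

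The calcium-regulated carriers of ATP-Mg and phosphate, which set the size of the matrix adenine nucleotide pool, all had positive values. Slc25a23 was the steadiest of the 38 members, with a pooled within-group SD of 0.16 on the log2 CPM scale. It had a median of 66.8 CPM in db/m (60.1 to 77.0) and of 74.4 CPM in db/db (67.2 to 98.1), with 9 of 9 db/db libraries above the db/m median (log2 fold change 0.21, SE 0.10; edgeR adjusted p = 0.204). Slc25a25 was among the most scattered: 36.8 to 83.3 CPM in db/m against 22.4 to 148 in db/db. Slc25a24 was scarce, at 5.48 ± 2.72 and 5.97 ± 1.57 CPM.

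Among the carriers of citric acid cycle intermediates, 3 of 4 had an unadjusted p under 0.05 and 0 passed adjustment. Slc25a10 (chromosome 11), the dicarboxylate carrier that exchanges malate or succinate for phosphate, was at 174 (lowest), 201 (median) and 237 CPM (highest) in db/m and at 206, 232 and 332 CPM in db/db. All 9 db/db libraries were above the db/m median, while the ranges overlapped. The means were 202 ± 20.6 and 243 ± 41.5 CPM (SD), a log2 fold change of 0.27 (SE 0.10; edgeR adjusted p = 0.130). The oxoglutarate/malate carrier Slc25a11 was at 0.22 (SE 0.11) and the citrate carrier Slc25a1, which supplies cytosolic acetyl groups for lipid synthesis, at 0.33 (SE 0.16). The db/db range of Slc25a1 reached 132 CPM in replicate 8 and 116 in replicate 7, where no db/m library was above 73.2. Slc25a21, which carries oxodicarboxylates of lysine and tryptophan breakdown, had a negative value, -0.42 (SE 0.22) with medians of 21.4 CPM in db/m against 16.6 in db/db.

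Of the amino acid carriers, the ornithine carrier Slc25a15 had the smallest p of the 38 members. It links the mitochondrial and cytosolic steps of ornithine metabolism. Its level was 124 (lowest), 147 (median) and 162 CPM (highest) in db/m and 131, 188 and 229 CPM in db/db. In 8 of 9 db/db libraries it was above the db/m median, and replicates 1 and 2 lay within the db/m range. The means were 144 ± 14.0 and 182 ± 32.6 CPM (SD), a log2 fold change of 0.34 (SE 0.11) with an adjusted p of 0.0658 by edgeR and 0.0321 by DESeq2. It also passed edgeR's test without db/db replicate 1 (0.37, adjusted p = 0.0413) or without db/db replicate 2 (0.39, adjusted p = 0.0225). It did not pass in any edgeR fit run on all 17 libraries, with adjusted p from 0.0604 to 0.124. With 1 library left out, Slc25a15 ran from 0.29 to 0.39 (edgeR adjusted p from 0.0225 to 0.131). This member, and the others whose p is discussed below, were picked out after their values were seen.

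Slc25a12 (aralar) and Slc25a13 (citrin) exchange mitochondrial aspartate for glutamate and are the calcium-sensing step of the malate-aspartate shuttle. Their mean levels were 121 ± 11.3 and 146 ± 27.4 CPM in db/m. In db/db, Slc25a12 was at 145 ± 28.4 CPM (log2 fold change 0.26, SE 0.11; edgeR adjusted p = 0.198) and Slc25a13 at 132 ± 31.2 CPM (-0.15, SE 0.14; edgeR adjusted p = 0.597). Within a library, the log2 ratio of Slc25a12 to Slc25a13 was -0.25 ± 0.24 in db/m against 0.14 ± 0.53 in db/db (SD). It was above 0 in 1 of 8 db/m and 7 of 9 db/db libraries, and lowest of all in db/db replicate 8 (-0.95). The difference of 0.40 did not pass the exact permutation test (two-sided, p = 0.0719; adjusted p = 0.363 over 14 pairs). Without db/db replicate 8 the difference was 0.53 and passed (exact permutation adjusted p = 0.0305). In the same fit without replicate 8, Slc25a12 itself passed edgeR's test (0.31, adjusted p = 0.0495). Over the 17 fits with 1 library left out, the ratio difference ran from 0.28 to 0.53 (exact permutation adjusted p from 0.0305 to 0.635). Slc25a12 ran from 0.19 to 0.31 (edgeR adjusted p from 0.0495 to 0.341).

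The basic amino acid carrier Slc25a29 had the largest positive value among the members, at the lowest level. It was at 2.61 (lowest), 3.02 (median) and 5.44 CPM (highest) in db/m and 3.35, 5.07 and 6.83 CPM in db/db. It rests on 124 counts over the 8 db/m and 195 over the 9 db/db libraries. The log2 fold change was 0.55 (SE 0.20; edgeR adjusted p = 0.111), and 0.68 without db/m replicate 7, where it passed (edgeR adjusted p = 0.0453). Over the 17 fits with 1 library left out, Slc25a29 ran from 0.48 to 0.68 (edgeR adjusted p from 0.0453 to 0.210). The branched-chain amino acid carrier Slc25a44 (0.13, SE 0.10) and the glycine carrier Slc25a38 (-0.07, SE 0.24), which serves heme synthesis, lay near 0.

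The cofactor and nucleotide carriers were mixed, with 6 of 9 values above 0 and none with an unadjusted p under 0.05. Slc25a51 (chromosome 4), the mitochondrial NAD carrier, was the third most abundant member. It was at 302 (lowest), 345 (median) and 395 CPM (highest) in db/m and at 218, 368 and 442 CPM in db/db. Db/db replicate 8 lay below all other libraries, and the rest overlapped with db/m. The means were 346 ± 29.5 and 357 ± 66.3 CPM (SD), a log2 fold change of 0.05 (SE 0.11, 95% interval -0.19 to 0.29; edgeR adjusted p = 0.861). The peroxisomal cofactor carrier Slc25a17 (0.32, SE 0.18) and the folate and FAD carrier Slc25a32 (0.10, SE 0.14) had positive values. The S-adenosylmethionine carrier Slc25a26 was at -0.31 (SE 0.29). Of the pyrimidine nucleotide carriers, Slc25a36 was at 0.08 (SE 0.15) and Slc25a33 at -0.33 (SE 0.21).

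Slc25a42 and Slc25a16 are both tied to coenzyme A import. Slc25a42 had the most negative value of the 38 members, -0.68 (SE 0.39; edgeR adjusted p = 0.333), and also the largest pooled SD, 0.83 on the log2 CPM scale. In db/m it ran from 5.09 over a median of 11.5 to 31.8 CPM, and in db/db from 3.72 over 6.42 to 29.7 CPM. The db/db maximum was replicate 1, and the other 8 db/db libraries lay at or under 10.1 CPM. Without replicate 1 the log2 fold change was -1.12 (SE 0.31) and passed (edgeR adjusted p = 0.0238). That fit kept db/m replicates 4 and 8, which were also high, at 27.1 and 31.8 CPM. Over the 17 fits with 1 library left out, Slc25a42 ran from -1.12 to -0.42 (edgeR adjusted p from 0.0238 to 0.592). Slc25a16 was at 0.00 (SE 0.20), with a sign that turned under upper-quartile scaling.

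The glutathione carrier Slc25a39 (chromosome 11) was the most abundant member of all. It was at 619 (lowest), 829 (median) and 1111 CPM (highest) in db/m, and at 635, 820 and 1618 CPM in db/db. The groups had nearly the same median, and db/db replicates 7 (1235) and 8 (1618) were above every db/m library. The means were 846 ± 165 and 919 ± 313 CPM (SD), a log2 fold change of 0.12 (SE 0.17; edgeR adjusted p = 0.746). Its paralogue Slc25a40 was at 15.1 ± 3.82 CPM in db/m against 16.0 ± 3.79 in db/db. The mitoferrins bring iron into the matrix for heme and iron-sulfur clusters. Mitoferrin 1, Slc25a37, went from 77.1 ± 15.9 to 96.2 ± 24.0 CPM (0.32, SE 0.15; edgeR adjusted p = 0.220). Mitoferrin 2, Slc25a28, was at 20.4 ± 7.19 and 16.4 ± 7.24 CPM (-0.31, SE 0.24). Its value was -0.18 without db/m replicate 4 and -0.48 without db/db replicate 1.

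Of the carriers that resemble uncoupling proteins, the kidney carrier Slc25a30 was the most abundant, at 86.6 ± 37.3 CPM in db/m against 68.4 ± 30.5 in db/db (-0.34, SE 0.28). Slc25a14 (-0.04, SE 0.16) and Slc25a27 (0.02, SE 0.27) were scarce. The outer membrane protein Slc25a46, which takes part in mitochondrial fusion and fission, went from 62.8 ± 6.38 to 80.4 ± 17.9 CPM (0.36, SE 0.12; edgeR adjusted p = 0.0859). It passed without db/db replicate 1 (0.40, edgeR adjusted p = 0.0459) or db/db replicate 2 (0.41, edgeR adjusted p = 0.0460). Over the 17 fits with 1 library left out, Slc25a46 ran from 0.28 to 0.41 (edgeR adjusted p from 0.0459 to 0.163).

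Of members whose substrate is less settled, Slc25a45 and Slc25a48 had an unadjusted p under 0.05. Slc25a45 was at 24.7 (lowest), 30.3 (median) and 42.7 CPM (highest) in db/m and at 33.1, 36.9 and 60.7 CPM in db/db. All 9 db/db libraries were above the db/m median, and the ranges overlapped. Its log2 fold change was 0.45 (SE 0.15; edgeR adjusted p = 0.0709), and 0.53 without db/m replicate 7, where it passed (edgeR adjusted p = 0.0423). Over the 17 fits with 1 library left out, Slc25a45 ran from 0.38 to 0.53 (edgeR adjusted p from 0.0423 to 0.141). Slc25a48 was at 0.38 (SE 0.16; edgeR adjusted p = 0.180). Slc25a35 (0.13, SE 0.21), Slc25a53 (0.01, SE 0.27) and Slc25a34 (-0.17, SE 0.16) did not pass.

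The 8 family genes under the count minimum had few or no counts. No count of Slc25a18 or Slc25a54 was seen in any library, which allows a level of up to 0.393 to 0.921 CPM depending on the library (3 counts, counting error only). Slc25a31, the testis ADP/ATP carrier, had 5 counts in 1 db/m library and 0 elsewhere, and Slc25a41 had 3 counts in 1 db/db library. The ornithine carrier 2, Slc25a2, had 5 counts in each group, and Slc25a43 had 7 and 2. Closest to the minimum were the glutamate carrier Slc25a22, with 10 counts in 7 libraries (109 counts in each group), and Slc25a47, in 6 libraries (61 and 85 counts). On the inner side of the minimum were Slc25a27 with 15 libraries and Slc25a26 and Slc25a53 with 16.

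Ratios of carriers with like substrate or sequence ran from near equal to over 5 on the log2 scale. The log2 ratio of Slc25a39 to Slc25a40 was 5.78 ± 0.31 in db/m against 5.78 ± 0.60 in db/db (SD), and that of Slc25a4 to Slc25a5 was 2.69 ± 0.23 and 2.77 ± 0.43. The size of the Slc25a4 to Slc25a5 ratio is as uncertain as the count of Slc25a5, which has near-identical processed copies. Slc25a23 stood above Slc25a24 by 3.65 ± 0.66 and 3.66 ± 0.38, while Slc25a23 and Slc25a25 were near each other (0.30 ± 0.40 and 0.23 ± 0.79). Slc25a10 exceeded Slc25a11 by 0.43 ± 0.15 and 0.48 ± 0.13, the tightest ratio of the 14. The mitoferrin ratio, Slc25a28 to Slc25a37, was -1.95 ± 0.74 in db/m against -2.59 ± 0.81 in db/db, and that of Slc25a16 to Slc25a42 was 0.77 ± 0.97 and 1.42 ± 0.55. Their differences of -0.64 and 0.64 did not pass (exact permutation adjusted p = 0.363 for each). Of 14 pairs, 0 differed between the groups after adjustment, and 0 had an unadjusted exact permutation p under 0.05. The smallest p this design can give is 4.1e-05.

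**Figure D3:**
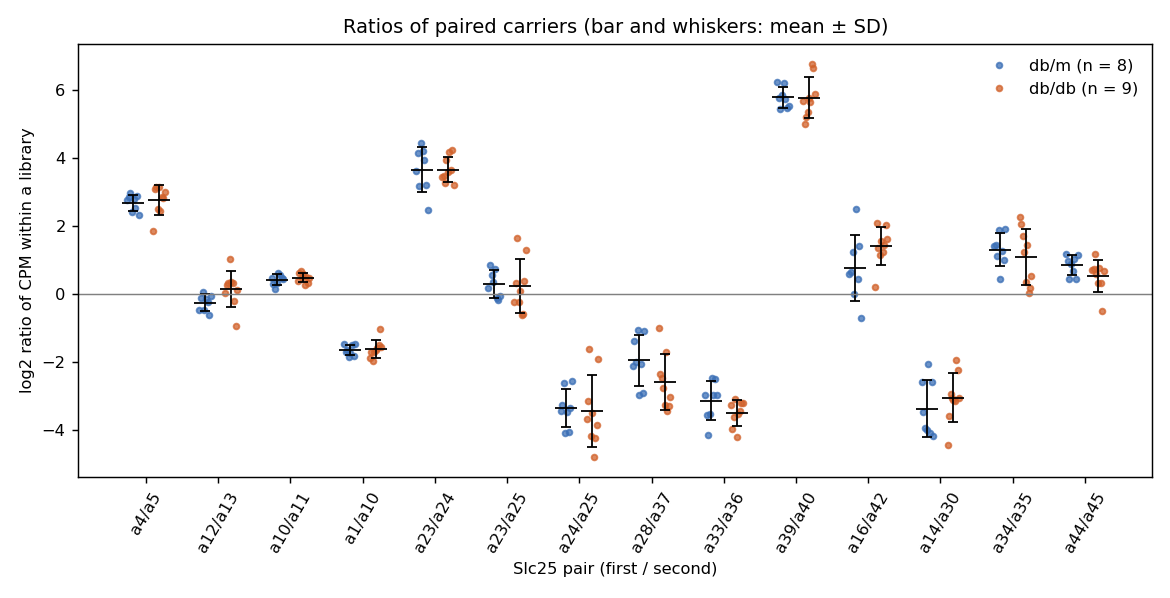
Log2 ratio of CPM within each library for 14 pairs of Slc25 genes, the prefix Slc25 left out on the axis; points are libraries, black bars and whiskers the mean ± SD of db/m (n = 8) and db/db (n = 9). Both groups overlap for every pair, and the ratio of Slc25a12 to Slc25a13 is lowest in db/db replicate 8, at -0.95.

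Larger scatter in db/db was common to most genes tested, carriers included. The SD of log2 CPM was larger in db/db than in db/m for 33 of 38 members (86.8%) and for 73.9% of all genes tested. Db/db replicate 8 was the highest or the lowest db/db library for 21 of the 38 (55.3%), and for 49.9% of all genes tested. It was low for Slc25a3, Slc25a51, Slc25a12 and Slc25a30 and high for Slc25a39, Slc25a1 and Slc25a37. Mitochondrially encoded genes took 22.0% of its counts, the lowest share of the 17 libraries. Whether that has a part in these values was not tested.

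A further set of members was high in the same 3 libraries of both groups: db/m replicates 4 and 8 and db/db replicate 1. The set was picked after its values were seen, and how many other genes share the pattern was not counted. These libraries were the highest or lowest of their group for 29.2%, 37.9% and 37.3% of all genes tested. Slc25a42 was at 27.1, 31.8 and 29.7 CPM there and at 3.72 to 14.8 in the other 14 libraries. Slc25a28 was at 32.6, 27.4 and 31.9 CPM, against 9.14 to 24.8. Slc25a30 was at 125, 136 and 130 CPM, against 23.8 to 114. Slc25a5 was at 62.9, 64.2 and 153 CPM, against 33.8 to 57.6. Slc25a22, which missed the count minimum, was at 8.33, 6.70 and 9.61 CPM, against 0 to 4.22. These libraries also had the lowest scores on the first principal component of all tested genes (-41.9, -44.3 and -40.6), which held 32.8% of the variance and is computed from these genes among others. Summed intercalated cell markers were lowest of their group in the same libraries, at 174 and 161 CPM in db/m replicates 4 and 8 and 237 in db/db replicate 1. Thick ascending limb markers were at 2019, 1809 and 1226 CPM, the last 2 the lowest of their groups. Adipocyte markers were at 46.5, 856 and 113 CPM, of which 856 was the highest of all libraries. Principal cell markers were at 223, 916 and 583 CPM, of which 223 and 583 were the lowest of their groups and 916 the highest. The shuttle and substrate enzymes described below summed to 6237, 7289 and 12163 CPM, the last 2 the highest of their groups. The part of these in the carrier values was not tested.

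**Figure D4:**
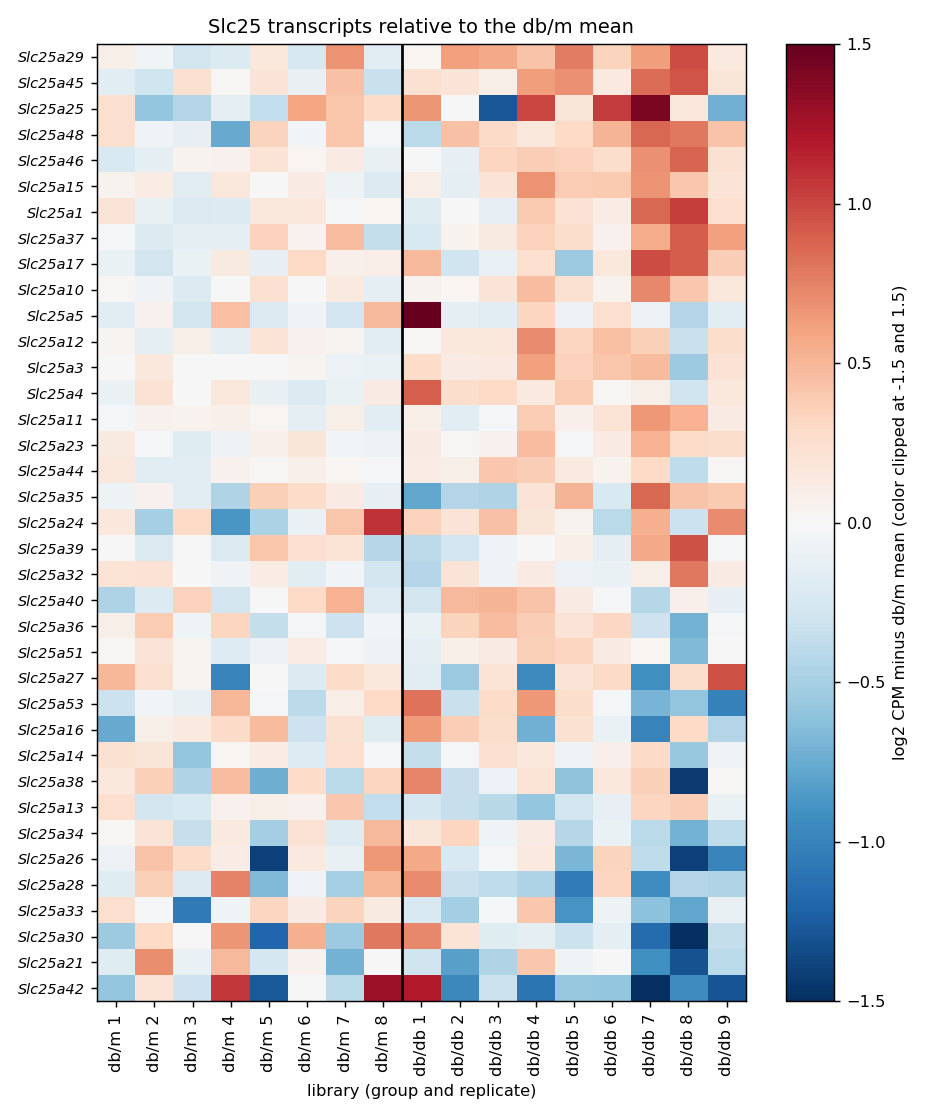
Log2 CPM of each Slc25 member in each library minus the db/m mean (color, clipped at -1.5 and 1.5), with 1 member not shown and the others ordered by log2 fold change from Slc25a29 at the top to Slc25a42 at the bottom. Db/db replicates 7 and 8 carry the strongest colors, and the bottom rows are red in db/m replicates 4 and 8 and db/db replicate 1 for Slc25a42, Slc25a30 and Slc25a28.

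The enzymes that work on the carried substrates gave a different count from the carriers. Of 17 shuttle and substrate enzymes, 8 rose and 1 fell, with a median log2 fold change of 0.41 (edgeR, against 3.91% and 3.49% of all genes). Whether the enzymes differ from the carriers was not tested. The enzymes with the smallest p among those named were Oat, which converts ornithine to glutamate semialdehyde (0.88, SE 0.13; 53.0 ± 4.29 to 97.7 ± 23.1 CPM; edgeR adjusted p = 9.99e-05) and cytosolic malic enzyme Me1 (-1.28, SE 0.20; 168 ± 47.1 to 69.1 ± 26.0 CPM; edgeR adjusted p = 0.000274).

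In the malate-aspartate shuttle, which passes cytosolic reducing power into the matrix, the enzymes Got1 (0.54, SE 0.13), Got2 (0.44, SE 0.13) and Mdh1 (0.45, SE 0.10) rose. Mdh2 was at 0.41 (SE 0.15; edgeR adjusted p = 0.111), and the carriers of the same shuttle, Slc25a11, Slc25a12 and Slc25a13, did not pass. The call of Got2 held in 4 of 17 fits that left out 1 library, and those of Got1 and Mdh1 in all 17.

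**Figure D5:**
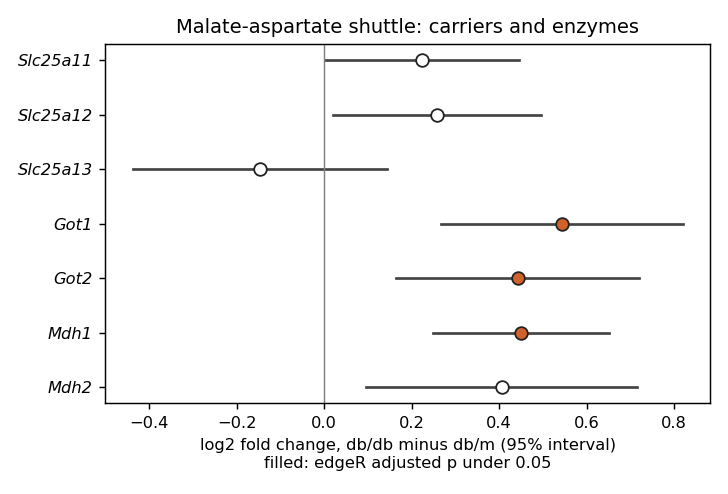
Log2 fold change, db/db minus db/m, with 95% interval for the carriers and enzymes of the malate-aspartate shuttle; filled points passed edgeR's test after adjustment over all genes. Got1, Got2 and Mdh1 are filled, while the intervals of Slc25a11 and Slc25a12 lie just above 0 and that of Slc25a13 includes 0.

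Other proteins of mitochondrial transport gave few calls. Of all genes tested, edgeR called 3.91% higher and 3.49% lower, DESeq2 5.12% and 4.4%, and limma-voom 3.59% and 3.96%. At an unadjusted p under 0.05 the edgeR shares were 11.6% and 9.52%. Of 17 tested inner membrane transporters outside the family, 2 rose and 0 fell: the mitochondrial serine carrier Sfxn1 (0.51, SE 0.12; 933 ± 130 to 1332 ± 260 CPM; edgeR adjusted p = 0.0113) and Tmem65 (0.42, SE 0.10; 27.3 ± 2.24 to 36.7 ± 5.18 CPM; edgeR adjusted p = 0.0141). Of 15 outer membrane channels and carrier import proteins, 0 were called by edgeR, with 2 higher at an unadjusted p under 0.05, while DESeq2 called 1 and limma-voom 0. Of 11 regulators of mitochondrial biogenesis, 0 were called by edgeR, DESeq2 or limma-voom, and 0 had an unadjusted p under 0.05. Of 3 tested genes with the carrier fold under other symbols, 0 were called by edgeR (2 higher at an unadjusted p under 0.05), 0 by limma-voom and 2 by DESeq2; Ucp2 was at 0.68 (SE 0.22; edgeR adjusted p = 0.0609), Mtch1 at 0.51 (SE 0.16; edgeR adjusted p = 0.0571) and Mtch2 at 0.09 (SE 0.09). Ucp1, the uncoupling protein of brown fat, ran from 0 to 238 CPM in db/m and from 0 to 37.8 CPM in db/db and was not tested.

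Markers of several cell types moved with the genotype, and in whole tissue fewer cells of a type and less RNA per cell cannot be told apart. Calls are by edgeR unless named, which called 3.91% of all genes higher and 3.49% lower. Of 7 markers of proximal tubule segment S3, 6 were lower and 1 higher in db/db (summed 2711 to 3143 CPM in db/m against 1373 to 2123 in db/db). Of 7 distal convoluted and connecting tubule markers 5 were higher (1532 to 2171 and 2444 to 4032 CPM), and of 6 intercalated cell markers 4 were higher (161 to 228 and 237 to 324 CPM). Of 6 principal cell markers 4 were higher and 1 lower (223 to 916 and 583 to 1562 CPM), of 5 podocyte markers 2 were higher (116 to 177 and 152 to 226 CPM), and of 10 S1 and S2 markers 2 were higher. In the thick ascending limb 1 of 6 was higher and 1 lower (1809 to 3685 and 1226 to 2964 CPM). A replicate block over 16 libraries called fewer genes of any kind, 194 higher and 231 lower against 474 and 423. Replicate numbers did not pair the animals, as described below. With that block, 0 intercalated, 0 principal cell and 0 thick ascending limb markers were called higher. In that fit 4 distal, 1 podocyte and 1 S1 and S2 marker were higher, and of the S3 markers 6 were lower and 1 higher. Of 6 endothelial markers 0 were called by edgeR, DESeq2 or limma-voom, with 1 lower at an unadjusted p under 0.05 (335 to 468 and 326 to 430 CPM). Markers of tissues beside the kidney varied widely between libraries: summed adipocyte markers ran from 13.8 to 856 CPM in db/m against 9.73 to 218 in db/db, and skeletal muscle markers from 8.10 to 284 and 1.14 to 63.5 CPM. By all 3 tools 0 were called in either list, with 1 of 4 adipocyte and 3 of 4 muscle markers lower at an unadjusted p under 0.05 by edgeR. Leukocyte markers were at 24.1 to 43.1 and 16.9 to 38.5 CPM, with Ptprc lower and Cd79a at 0, and adrenal markers at 0.899 to 3.94 and 1.32 to 5.28 CPM. Their part in the Slc25 values was not tested.

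The members lie on 18 chromosomes, with at most 5 on 1 chromosome. In the GENCODE M21 annotation 12 of the 38 have an exon that overlaps another gene, 11 of them on the opposite strand, so their counts depend on an unstated strand setting. The largest counts on such a partner were for Rnf167, with 1744 over all libraries against 12590 for Slc25a11. Lrig1 held fewer counts but a larger share beside its member, 204 against 462 for Slc25a26. RefSeq promoter windows (GRCm38.p6, 250 bases before to 50 after a start) were at hand for 29 members, 37 windows in all. Searched on both strands, 0 of the 37 held the 10-base NRF1 motif, the estrogen-related receptor motif TCAAGGTCA or the ETS motif CCGGAAGT, against 1.97%, 0.249% and 8.01% of the 11629 windows of all tested genes. That says only that these letters are not in these windows.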

How the data were processed

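A QuantSeq forward kit primed the 3′ libraries, per the labels' protocols, which speak of plated cells although the tissue is given as kidney. The authors deposited raw counts per gene for 17 libraries from 17 animals. The submitters' processing notes name STAR 2.7.3a, HTSeq 2.16.2 and the build GRCh38, while gene identifiers in the table are those of mouse. Mouse build, annotation release and strand setting were not given in the sources used here; only chromosomes (GENCODE M21) are printed. Symbols were matched for 55141 of 55487 identifiers. Lines for reads outside genes and ambiguous reads held 19.3% and 0.533% of all reads and were left out.

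The test was edgeR 4.0.16 on raw counts (quasi-likelihood, TMM, filterByExpr with a minimum count of 10, no covariate) in R 4.3.3 on 12131 genes, with Benjamini-Hochberg adjustment over all of them and a threshold of 0.05. The SE is the log2 fold change divided by the square root of F. DESeq2 1.42.0 and limma-voom 3.58.1 were run beside it, with other scalings, filters, a replicate block and each library left out. Code was tested on simulated data. Log2 CPM used a prior count of 2, and pair ratios an exact two-sided permutation test over libraries, adjusted over 14 pairs. No library was a copy of another of its own group (lowest chi-square per degree of freedom 3.83), and pairs across the groups were not compared. Members and lists were chosen with earlier results of these data known. The rule for named genes was every called member, the 5 most abundant, members of any pair that passed, and from each pathway list all called genes or, where over 5, the 3 with the smallest p. Got1, Got2, Mdh1, Mdh2 and all other named genes were chosen after their values were seen. A few items, among them the values of 1 member, are not reported here, though all counts of members and genes include them; by the labels the groups also differ in genotype beyond Lepr, and the effects cannot be told apart.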

Additional observations from a re-analysis of the deposited data

Results flagged for a closer look

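Values that stood far from the rest of their group by Dixon's test were seen in 12 of 104 groups of values examined. For independent groups chance would give about 1 in 20. These groups share libraries, and the ratios reuse the members' values, so whether 12 is more than chance gives was not tested. Values are log2 CPM unless a ratio is named. In db/db replicate 8, Slc25a3 (8.85; next lowest 9.52), Slc25a51 (7.77; next 8.28) and Slc25a44 (5.45; next 5.85) were low, and the log2 ratio of Slc25a1 to Slc25a10 was high (-1.02; next highest -1.51). In db/db replicate 1, Slc25a5 (7.26; next highest 5.86) and Slc25a42 (4.91; next 3.40) were high, and the log2 ratio of Slc25a16 to Slc25a42 was low (0.22; next lowest 1.15). In db/m replicate 4, Slc25a48 (4.69; next lowest 5.33) and Slc25a27 (1.46; next 2.26) were low. Slc25a33 was low in db/m replicate 3 (2.21; next lowest 3.21) and Slc25a26 in db/m replicate 5 (1.33; next lowest 2.62). Slc25a29 was high in db/m replicate 7 (2.55; next highest 2.05). Of these 12 values, 7 come from db/db replicates 1 and 8, which are among the 4 libraries that stood apart.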

How the results depend on the processing

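The 0 calls among Slc25 members held under limma-voom, DESeq2 size factors, upper-quartile scaling, no filter, a filter of 10 counts in 8 libraries, removal of mitochondrially encoded genes, the robust option, and removal of the 4 libraries that stood apart, chosen after seeing the data. DESeq2 called 1. Leaving out 1 library at a time gave 0 to 2 members higher and 0 to 1 lower, with a call in 4 of 17 fits (those lacking db/m 7, or db/db 1, 2 or 8), and 25 to 29 positive values. Members higher at an unadjusted p under 0.05 were 12, and 8 by limma-voom, upper-quartile scaling or with the 4 libraries removed. Leaving out 1 library moved the log2 fold change of 22 of the 38 members by over 1.5 times in at least 1 fit. That count includes members with values near 0, such as Slc25a16 at 0.000276, where a small shift is a large ratio. The same share over all genes was not computed. Of 14 pairs, 0 to 1 passed with 1 library left out. Signs turned for Slc25a16 (-0.0111 by limma-voom, -0.0114 by upper-quartile scaling) and Slc25a53 (-0.13 by limma-voom). With the 4 libraries removed they turned for Slc25a39 (-0.00217), Slc25a5 (-0.0177), Slc25a16 (-0.0380), Slc25a14 (0.0672) and Slc25a53 (-0.13), and for the Slc25a1/Slc25a10 ratio (-0.0442), Slc25a23/Slc25a25 ratio (0.0670) and Slc25a24/Slc25a25 ratio (0.0471). With a prior count of 0.5, Slc25a23/Slc25a24 ratio turned (-0.00467). With 1 library left out, signs turned in at least 1 fit for Slc25a39 (-0.0274 to 0.199), Slc25a5 (-0.0656 to 0.349), Slc25a32 (-0.0167 to 0.165), Slc25a16 (-0.0921 to 0.0930), Slc25a38 (-0.193 to 0.0406), Slc25a14 (-0.107 to 0.0241), Slc25a27 (-0.175 to 0.109) and Slc25a53 (-0.124 to 0.131). Ratio differences did so for Slc25a1/Slc25a10 ratio (-0.0510 to 0.0690), Slc25a23/Slc25a24 ratio (-0.155 to 0.125), Slc25a23/Slc25a25 ratio (-0.245 to 0.0386), Slc25a24/Slc25a25 ratio (-0.306 to 0.0910) and Slc25a39/Slc25a40 ratio (-0.13 to 0.0913). The cause was not tested. By DESeq2, 2 genes of the carrier fold under other symbols and 1 outer membrane or import gene were higher; with 1 library left out these counts were 0 to 2 and 0 to 1. Enzymes called higher were 6 to 8 with 1 library left out, and inner membrane transporters 2 to 3.

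Replicate numbers did not pair the animals: deviations of same-numbered libraries correlated at -0.45 to 0.21, and 0 of 8 db/m libraries correlated best with their own number. With a replicate block over 16 libraries, 0 members were called, 7 were higher at an unadjusted p under 0.05, Slc25a27 turned to -0.20, enzymes called higher were 4 and inner membrane transporters 0, and 0 pairs passed. That fit called 194 genes higher and 231 lower, against 474 and 423. Depth limits the scarce members most: Slc25a29 rests on 124 and 195 counts.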
